A study of Arabidopsis thaliana with 2 samples.

Results

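The genes described here are the 41 nuclear Arabidopsis genes whose products make and break down starch in the leaf, together with their nearest family members. They were taken by locus from a table of 33602 genes, and all 41 were found and had reads. The set runs from the plastidial enzymes that turn sugar phosphate into ADP-glucose, through the starch synthases and the branching and debranching enzymes, to the glucan kinases and phosphatases, the amylases, the phosphorylases, the disproportionating enzymes DPE1 and DPE2 and the maltose exporter MEX1. The rule goes by function and takes no measured value, although the set was proposed with earlier results of these data known.

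Both genotypes of the study, the wild type and an SsCBF1 overexpressor, were each measured as 1 RNA-seq library. Col-0 is the wild type accession. 35S:SsCBF1-11, called the transgenic line from here on, is a homozygous line in Col-0 that carries SsCBF1, a CBF cold-response transcription factor gene from the wild tomato relative Solanum lycopersicoides, behind the constitutive CaMV35S promoter. Shoots from 20 plants per genotype, 4 weeks old, were pooled before RNA was extracted, and both genotypes had grown side by side at 22°C in days of 16 h light and 8 h dark, without cold or salt treatment. The transgenic genotype is represented by a single line and flowers late according to the study. The libraries held 9120358 reads (Col-0) and 6669454 reads (35S:SsCBF1-11) over all genes.

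Starch is the store of carbon that a leaf lays down in its chloroplasts by day and spends by night. ADP-glucose pyrophosphorylase commits carbon to the pathway, starch synthases lengthen glucan chains, and branching and debranching enzymes shape amylopectin, while granule-bound synthase makes amylose. At night the granule surface is phosphorylated and dephosphorylated, which opens it to beta-amylases, and the maltose they release leaves the plastid through MEX1. Many of these transcripts follow the day in Arabidopsis leaves, and starch and soluble sugars are both known to change when plants are moved to the cold.

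With 1 library per genotype no spread between plants or pools could be measured. Each gene was compared by a two-sided exact binomial test of its reads against the libraries' shares of all reads, with Benjamini-Hochberg adjustment over the 22319 genes with reads. This compares 2 libraries and not 2 genotypes, and a p-value from it says only whether a difference exceeds counting error. All intervals below are exact (Clopper-Pearson) 95% intervals and cover counting error only. A level is given as reads or as RPKM (reads divided by the listed gene length and by the library total), and levels of different genes are compared in RPKM alone. In pooled shoots, fewer cells of a type and less RNA per cell cannot be told apart.

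Several facts of the libraries as a whole bear on what follows. Of 8 cold-response genes, 7 were higher in the transgenic line at an adjusted p under 0.05, with COR15A at 111 reads in Col-0 and 2782 in the transgenic line. All 4 leaf markers were higher as well, by ratios of 1.09 (RCA) to 1.79 (CAB1), and their summed reads gave 289089 in Col-0 and 263851 in the transgenic line, a ratio of 1.25 per library total. The 5 anther and pollen coat markers summed to 302 reads in Col-0 and to 0 in the transgenic line, where 0 allows for up to 3 reads of a gene. None of 10 clock genes passed an adjusted p of 0.05: the dawn genes LHY (248 and 241 RPKM) and CCA1 (63.0 and 64.6 RPKM) stood far above the evening gene TOC1 (3.36 and 2.55 RPKM) in both libraries. Over all genes with at least 10 reads, 58.6% had a log2 ratio below 0. Of the 9 clock genes with that many reads, 8 were below 0, with a median log2 ratio of −0.38. GI (120 and 58 reads) had a ratio of 0.661 (0.475 to 0.912, exact binomial test, adjusted p = 0.0742). The part of these facts, the clock genes among them, in the starch gene results was not tested.

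The sequences just upstream of 4 starch genes are shown first. SS1 had the smallest adjusted p of the 41 genes and BAM6 the lowest ratio. PHS1 and BAM5 are shown for their motifs, PHS1 as the gene with the most matches and BAM5 as 1 of the 3 genes with a CBF-type core in this window. Each is the 300 bases before the annotated gene start, read 5′ to 3′ on the gene's strand from the TAIR10.1 assembly, and no annotated gene lies in any of them. SS1 was read from chr5:8266266-8266565 on the plus strand, BAM6 from chr2:13717003-13717302 on the minus strand, PHS1 from chr3:11252507-11252806 on the plus strand and BAM5 from chr4:8669527-8669826 on the minus strand. Capitals mark 3 motifs: CCGAC, the core of the C-repeat that CBF proteins bind, AAATATCT, the evening element, and CACGTG, the G-box, each searched on both strands so that an antisense match appears as its reverse complement.
SS1: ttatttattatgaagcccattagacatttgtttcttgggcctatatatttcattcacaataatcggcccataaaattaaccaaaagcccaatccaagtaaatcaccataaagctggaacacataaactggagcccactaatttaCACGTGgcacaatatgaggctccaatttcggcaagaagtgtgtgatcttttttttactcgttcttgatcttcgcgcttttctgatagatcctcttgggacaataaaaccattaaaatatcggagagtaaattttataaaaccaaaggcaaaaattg
BAM6: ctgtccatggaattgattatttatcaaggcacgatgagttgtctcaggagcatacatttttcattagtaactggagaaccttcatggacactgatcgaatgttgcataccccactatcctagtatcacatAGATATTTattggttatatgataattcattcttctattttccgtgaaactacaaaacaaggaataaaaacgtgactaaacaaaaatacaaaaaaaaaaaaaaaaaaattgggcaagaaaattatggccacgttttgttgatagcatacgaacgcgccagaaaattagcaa
PHS1: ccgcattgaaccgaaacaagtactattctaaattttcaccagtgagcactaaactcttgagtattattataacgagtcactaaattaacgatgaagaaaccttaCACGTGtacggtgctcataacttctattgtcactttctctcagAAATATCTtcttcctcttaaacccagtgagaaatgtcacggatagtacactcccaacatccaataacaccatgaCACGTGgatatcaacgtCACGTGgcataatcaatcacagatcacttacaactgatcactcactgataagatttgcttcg
BAM5: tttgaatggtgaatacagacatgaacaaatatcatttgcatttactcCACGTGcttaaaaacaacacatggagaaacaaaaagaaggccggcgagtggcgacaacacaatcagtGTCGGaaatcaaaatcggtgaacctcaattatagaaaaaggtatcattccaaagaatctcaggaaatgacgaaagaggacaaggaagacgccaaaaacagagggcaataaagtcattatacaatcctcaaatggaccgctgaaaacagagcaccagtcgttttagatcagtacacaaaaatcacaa

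The SS1 window has 1 G-box, 156 to 151 bases before the start. BAM6 has 1 evening element, antisense, at 170 to 163 bases. PHS1 has 3 G-boxes, the nearest at 62 to 57 bases, and an evening element at 153 to 146 bases. BAM5 has a C-repeat core, antisense, at 186 to 182 bases, and a G-box at 253 to 248 bases.

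Over the whole set, the C-repeat core was found in 3 of 41 windows (AMY3, BAM5 and ISA3), a share of 7.32%, against 13.9% of 27443 protein-coding genes. Per library total BAM5 was higher in the transgenic line, while AMY3 and ISA3 were lower. None of these 3 passed an adjusted p of 0.05 against the library totals. The evening element was found in 7 members (17.1%, against 5.64% of all) and the G-box in 12 (29.3%, against 7.09% of all). In 1000 bases the C-repeat core was in 36.6% of members and 37.4% of all genes. The evening element was then in 24.4% of members and 15.3% of all genes, and the G-box in 34.1% and 14.8%. A match is a run of letters and not a bound site, and no gap between these shares was tested.

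Starch genes spanned a wide range of levels, and 6 of them made up most of it. GBSS1 was the most abundant, at 296 RPKM in Col-0 and 273 RPKM in the transgenic line, followed by BAM3 at 222 and 192 RPKM and BAM9 at 140 and 119 RPKM. With APS1, BAM1 and APL1 these genes held 70.8% of the summed starch gene RPKM in Col-0 and 69.8% in the transgenic line, and the lowest of these levels was the 98.8 RPKM of BAM1 in the transgenic line. At the other end, AMY1 and GWD2 were below 1 RPKM in both. In all, 40 of the 41 genes had at least 20 reads over the 2 libraries and 38 had at least 50, the others being AMY1 (11 reads), GWD2 (21 reads) and APL4 (39 reads).

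**Figure D1:**
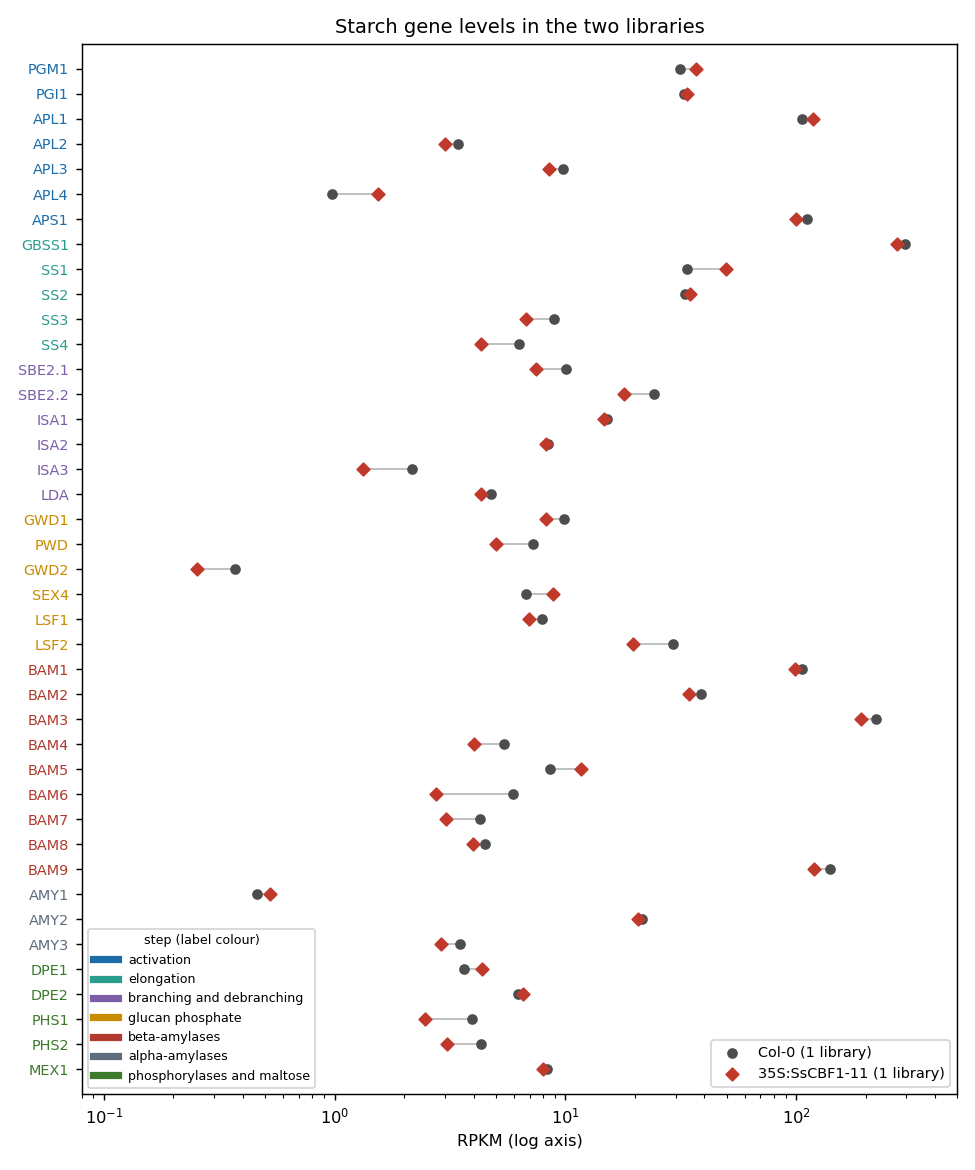
Level of each of the 41 starch genes in RPKM (log axis) in the Col-0 library (grey circles) and the 35S:SsCBF1-11 library (red diamonds), with gene names coloured by step of the pathway. Levels run from GWD2 at 0.370 and 0.253 RPKM to GBSS1 at 296 and 273 RPKM, and the widest gap is that of BAM6.

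No starch gene met the study's thresholds of an adjusted p under 0.001 together with a fold above 2, applied here to the binomial test. The study does not name its own test, and its q-values were not used. The count was 0 of 41 in the higher direction, where 0.533% of all tested genes (119) did so, and 0 of 41 in the lower direction, where 0.838% (187) did. At an unadjusted p under 0.05 there were 4 higher and 17 lower members, while 4722 of the 22319 tested genes passed in either direction. At an adjusted p under 0.05 and any fold, 2 starch genes were higher in the transgenic line (SS1 and APL1; 4.5% of all tested genes were higher) and 12 were lower (APS1, GBSS1, SS3, SS4, SBE2.1, SBE2.2, PWD, LSF2, BAM3, BAM6, BAM9 and PHS1; 7.18% of all tested genes were lower). Deeply read genes pass more easily: among the 14353 genes with at least 50 reads, which take in 38 members, 942 were higher and 1474 lower. The other 27 members passed in neither direction, and 37 of the 41 ratios lay within 1.5-fold either way.

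The set as a whole was slightly lower in the transgenic line. Its summed reads were 26852 in Col-0 and 18248 in the transgenic line, a ratio of 0.929 per library total (0.912 to 0.947). Of the members, 30 of 41 (73.2%) were below 1, beside 58.6% of all genes with at least 10 reads. The median log2 ratio of the members was −0.18, beside −0.07 over the 18443 genes with at least 10 reads. Genes of breakdown and of synthesis stood apart in the sums. The 16 synthesis genes, from PGM1 to ISA2, gave a ratio of 0.978 (0.953 to 1.003), and the 25 genes of breakdown, from ISA3 to MEX1, gave 0.872 (0.848 to 0.897). The breakdown group goes by family. It includes members described below as noncatalytic (BAM4, BAM9), nuclear (BAM7, BAM8) or outside the plastid (BAM5, GWD2, AMY1, AMY2). This group took 45.8% of starch gene reads in Col-0 (45.2 to 46.4%) and 43.0% in the transgenic line (42.3 to 43.7%). No scaling of the libraries can move this share. These sums are weighted to GBSS1, BAM3 and the other abundant genes. Gene by gene, the median log2 ratio was −0.08 over the synthesis genes and −0.21 over the breakdown genes. Of the 16 synthesis genes, 2 were higher and 6 lower at an adjusted p under 0.05, and 10 were below 0. Of the 25 breakdown genes, 0 were higher and 6 lower, and 20 were below 0. Over all tested genes, 4.5% were higher and 7.18% lower. Among the 14353 genes with at least 50 reads, which most members have, 942 were higher and 1474 lower.

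**Figure D2:**
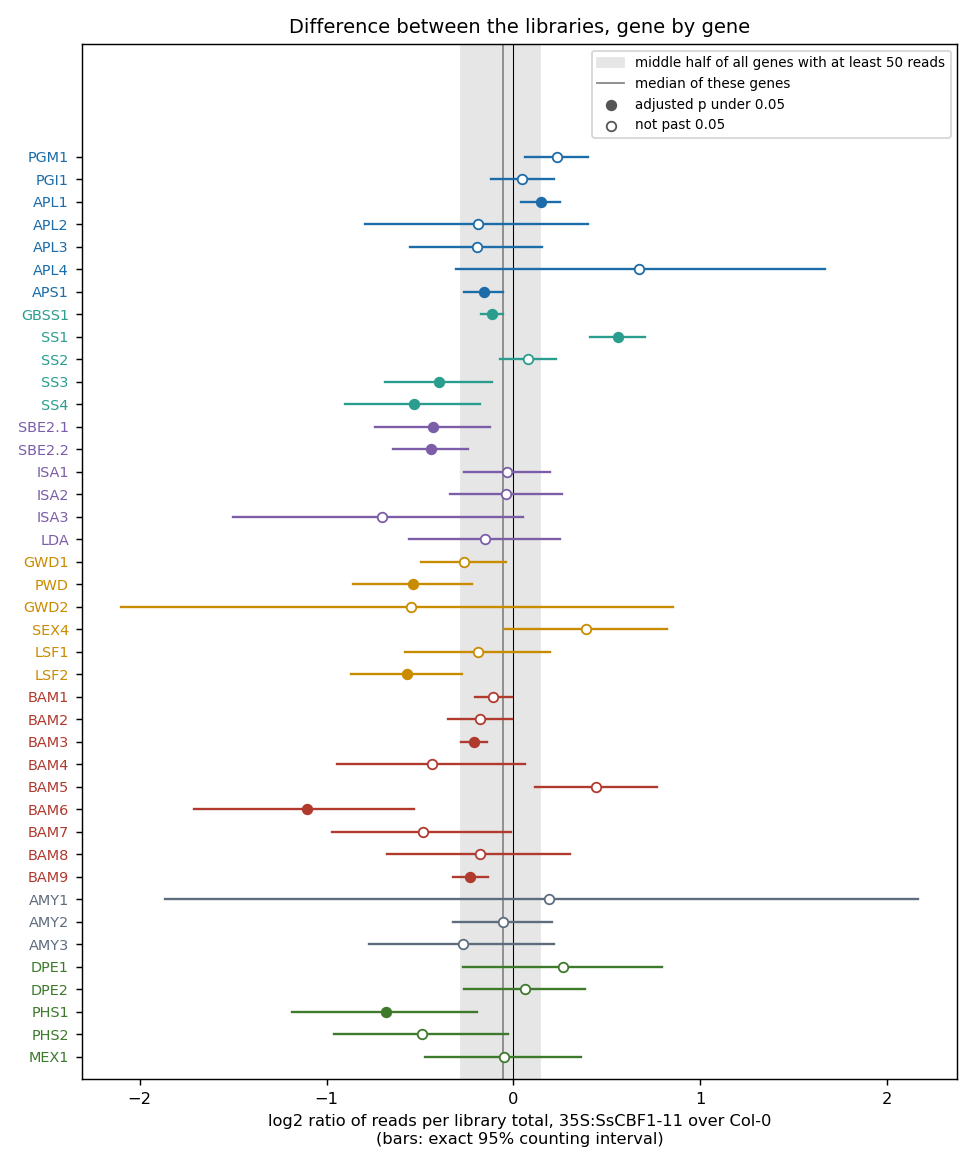
Log2 ratio of reads per library total (35S:SsCBF1-11 over Col-0) for each starch gene, with exact 95% counting intervals, filled where the adjusted p was under 0.05. The grey band spans the quartiles of the 14353 genes with at least 50 reads (−0.28 to 0.14), and most members sit to the left of 0, with SS1 and BAM6 on opposite sides of the band.

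The first steps, from hexose phosphate to ADP-glucose, were close to even as a group, with a summed ratio of 1.02 (0.976 to 1.06) over 7 genes. At an adjusted p under 0.05, 1 was higher and 1 lower, where 4.5% and 7.18% of all tested genes were. APL1 (AT5G19220), the main large subunit of ADP-glucose pyrophosphorylase in leaves, had 1681 reads in Col-0 and 1361 in the transgenic line, or 106 and 118 RPKM. That is a ratio of 1.11 (1.03 to 1.19, exact binomial test with Benjamini-Hochberg adjustment, adjusted p = 0.0481). APS1 (AT5G48300), the catalytic small subunit that pairs with it, had 1920 and 1258 reads, or 111 and 99.5 RPKM, a ratio of 0.896 (0.834 to 0.963, exact binomial test, adjusted p = 0.0242). The subunits therefore moved in opposite directions by small amounts, and APL1 stood at 0.958 times the RPKM of APS1 in Col-0 and at 1.18 times in the transgenic line.

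Neither call held in every alternative. With library totals computed without the 10 most abundant genes APL1 no longer passed, and with the edgeR, DESeq2 or upper quartile scaling APS1 no longer passed. The other large subunits were minor in the shoot. APL3 (174 and 111 reads) and APL2 (64 and 41 reads), subunits better known from sink tissues, had 9.74 and 8.50 RPKM and 3.42 and 3.0 RPKM. APL4 had the highest ratio of the members with at least 20 reads, 1.60, but on 18 and 21 reads its interval ran from 0.809 to 3.18 (exact binomial test, adjusted p = 0.464). It took 0.805% of the large subunit RPKM in Col-0 and 1.18% in the transgenic line, where APL1 took 88.3% and 90%.

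The genes that feed the pathway did not pass against the library totals. PGM1 (AT5G51820), the plastidial phosphoglucomutase without which leaves make almost no starch, had 617 and 530 reads, 31.3 and 36.8 RPKM, and lay just outside the threshold (exact binomial test, adjusted p = 0.0581). It passed as higher in 5 alternatives, namely the edgeR, DESeq2 and upper quartile scalings, the minimum of 10 reads and the length classes (lowest adjusted p = 0.00257, with a range over the alternatives up to 1). PGI1, the plastidial phosphoglucose isomerase before it, had 677 and 512 reads, 32.6 and 33.7 RPKM.

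Among the synthases, SS1 (AT5G24300; chr5:8266566-8271205, plus strand) differed most clearly of all 41 genes. This soluble synthase, which extends the short chains of amylopectin, had 747 reads in Col-0 and 804 in the transgenic line, although the second library was smaller, and so rose from 33.7 to 49.6 RPKM. The ratio was 1.47 (1.33 to 1.63, exact binomial test, adjusted p = 2.40e-12), and SS1 passed under every scaling tried that took counting error alone. When a coefficient of variation of 0.1 between pools was assumed in edgeR's exact test it did not pass (adjusted p = 0.246, with a range over the alternatives of 8.17e-17 to 1). SS2, which makes chains of intermediate length, had 826 and 638 reads, 32.8 and 34.7 RPKM. The pair was level in Col-0, where SS1 stood at 1.03 times the RPKM of SS2, and apart in the transgenic line, where it stood at 1.43 times.

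The remaining soluble synthases were lower. SS3 (AT1G11720), which makes longer chains, had 287 and 159 reads, or 8.91 and 6.75 RPKM, and was 1.32-fold lower (1.08 to 1.61, exact binomial test, adjusted p = 0.0415). SS4 (AT4G18240), needed for the normal number of granules per chloroplast, had 194 and 98 reads, or 6.27 and 4.33 RPKM, and was 1.45-fold lower (1.13 to 1.87, exact binomial test, adjusted p = 0.0289). Both synthases lost their calls under the edgeR, DESeq2 and upper quartile scalings. Within the soluble synthases SS1 took 36.4% of the reads in Col-0 (34.3 to 38.5%) and 47.3% in the transgenic line (44.9 to 49.7%), while SS4 took 9.44% (8.21 to 10.8%) and 5.77% (4.71 to 6.98%).

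GBSS1 (AT1G32900), the granule-bound synthase that makes amylose, had the most reads of the set. It had 5919 reads in Col-0 and 3996 in the transgenic line, a ratio of 0.923 (0.887 to 0.961, exact binomial test, adjusted p = 0.00159). It did not pass under the edgeR TMM factors (adjusted p = 0.383, with a range over the alternatives of 6.33e-05 to 1). Nor did GBSS1 pass under the DESeq2 or upper quartile scalings. It also failed against the median of all genes of its length class, an alternative chosen after seeing the data. Its RPKM was 8.79 times that of SS1 in Col-0 and 5.51 times in the transgenic line.

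The branching enzymes were lower together. SBE2.2 (AT5G03650), the more abundant of the 2, had 578 reads in Col-0 and 311 in the transgenic line, or 24.3 and 17.9 RPKM, and was 1.36-fold lower (1.18 to 1.57, exact binomial test, adjusted p = 2.37e-04). SBE2.1 (AT2G36390) had 254 and 138 reads, or 10.0 and 7.46 RPKM, and was 1.35-fold lower (1.09 to 1.67, exact binomial test, adjusted p = 0.0430). The enzymes add the branch points of amylopectin and can stand in for each other in Arabidopsis leaves. Their proportion was the same in both libraries, SBE2.2 standing at 2.42 and 2.40 times the RPKM of SBE2.1. SBE2.2 also passed under every scaling tried that took counting error alone, whereas SBE2.1 did not pass under the edgeR, DESeq2 and upper quartile scalings.

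None of the 4 debranching enzymes passed. ISA1 (374 and 267 reads, 15.1 and 14.7 RPKM) and its partner ISA2 (226 and 161 reads, 8.43 and 8.21 RPKM), which trim misplaced branches while amylopectin forms, were near equal per library total. ISA3 (49 and 22 reads, 2.16 and 1.33 RPKM) and the limit dextrinase LDA (132 and 87 reads, 4.77 and 4.30 RPKM) remove branches during breakdown. Over branching and debranching together the 6 genes gave a ratio of 0.836 (0.771 to 0.905). At an adjusted p under 0.05, 0 were higher and 2 lower, where 4.5% and 7.18% of all tested genes were. No member of the step was above 1. This shared direction ended when each gene was set against the median of all genes of its length class, an alternative chosen after seeing the data: the median log2 ratio of the step went from −0.29 to −0.06, and ISA1 (0.06), ISA2 (0.21) and LDA (0.10) turned above 0.

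Of the 6 genes that add phosphate to the granule or take it off, 2 were lower and none was higher. Over all tested genes 7.18% were lower and 4.5% higher. PWD (AT5G26570), the kinase that acts on glucan already phosphorylated by GWD1, had 250 reads in Col-0 and 126 in the transgenic line, or 7.22 and 4.98 RPKM. It was 1.45-fold lower (1.17 to 1.81, exact binomial test, adjusted p = 0.00719). Set against its length class, its log2 ratio went from −0.53 to −0.28 and it no longer passed (adjusted p = 0.318, with a range over the alternatives of 0.00429 to 1). GWD1 itself (421 and 256 reads, 9.88 and 8.22 RPKM), whose loss gives the starch-excess mutant sex1, did not pass (exact binomial test, adjusted p = 0.123). GWD2, a relative that acts outside the plastid, had 14 and 7 reads, too few for a change of this size to be detectable.

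LSF2 (AT3G10940; chr3:3422034-3423455, minus strand) is a phosphatase that removes phosphate from the position that PWD fills. It had 288 reads in Col-0 and 142 in the transgenic line, or 29.2 and 19.7 RPKM, and was 1.48-fold lower (1.21 to 1.83, exact binomial test, adjusted p = 0.00180). It is the shortest member, at 1081 bases, and passed under every scaling tried that took counting error alone. The phosphatase SEX4 had 93 and 89 reads, so that its level was 6.76 RPKM in Col-0 and 8.84 RPKM in the transgenic line (exact binomial test, adjusted p = 0.301). Their proportion shifted: LSF2 stood at 4.32 times the RPKM of SEX4 in Col-0 and at 2.23 times in the transgenic line. Of the reads of the 3 genes of this family, SEX4 took 17.7% (14.5 to 21.2%) and 27.5% (22.7 to 32.7%), and LSF2 took 54.8% (50.4 to 59.1%) and 43.8% (38.3 to 49.4%).

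LSF1, a relative known to bind beta-amylases and not to act as a phosphatase, had 145 and 93 reads (7.90 and 6.93 RPKM). Its gene model shares 343 bases on the same strand with AT3G01500, which had 31185 and 24012 reads, so its count is uncertain. The summed ratio over the phosphate genes was 0.805 (0.733 to 0.884), the lowest of the 7 steps. That interval overlaps the 0.771 to 0.905 of branching and debranching. Set against the length classes, an alternative chosen after seeing the data, the median log2 ratio of the phosphate genes went from −0.38 to −0.20.

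**Figure D3:**
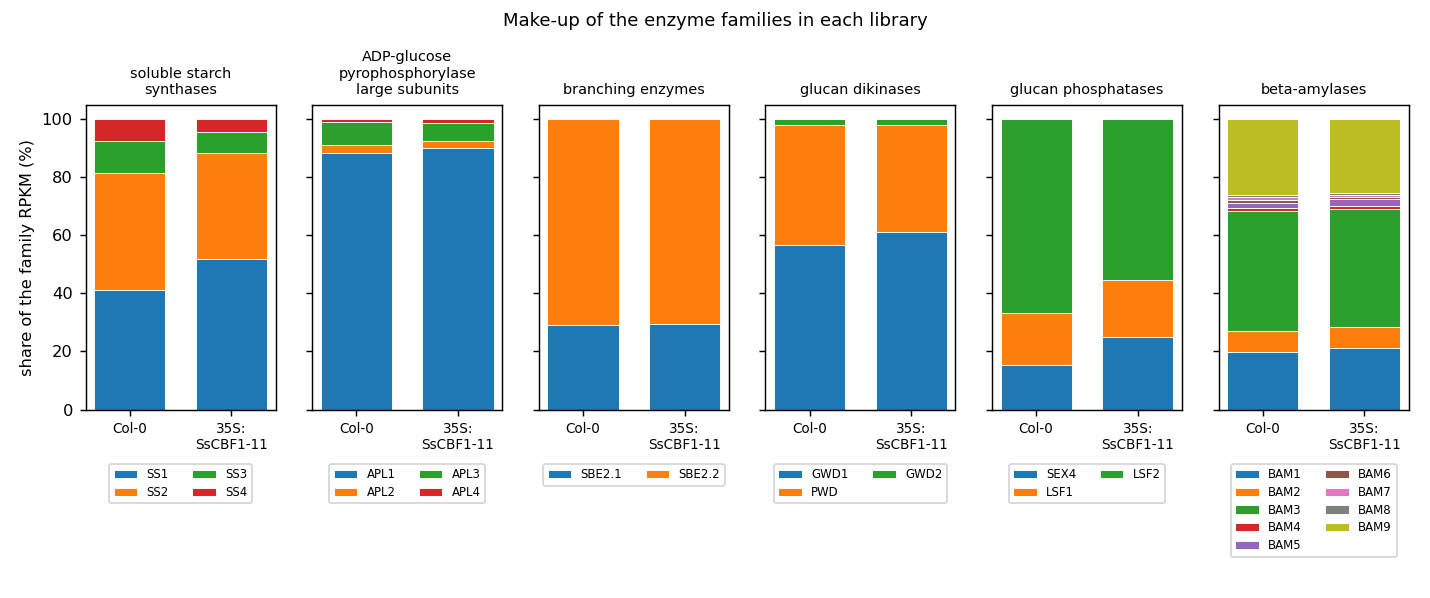
Share of each family's summed RPKM held by its members in the 2 libraries. SS1 grew from 41.2% to 52.0% of the soluble synthases and SEX4 from 15.4% to 24.9% of the glucan phosphatases, while the branching enzymes (SBE2.2 at 70.8% and 70.6%) and the leading beta-amylases (BAM3 at 41.4% and 40.8%) held their proportions.

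The 9 beta-amylases gave 3 lower genes and none higher, with a summed ratio of 0.877 (0.850 to 0.905). At the same adjusted p under 0.05, 7.18% of all tested genes were lower and 4.5% higher. BAM3 (AT4G17090), the main catalytic beta-amylase of the mesophyll at night, had 4117 reads in Col-0 and 2602 in the transgenic line, or 222 and 192 RPKM. It was 1.16-fold lower (1.10 to 1.22, exact binomial test, adjusted p = 2.08e-07). BAM9 (AT5G18670), a plastidial member that lacks catalytic activity, had 2457 and 1531 reads, or 140 and 119 RPKM, and was 1.17-fold lower (1.10 to 1.25, exact binomial test, adjusted p = 2.12e-05). These abundant members moved by about the same factor, and both passed under every scaling tried that took counting error alone.

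BAM1 (2069 and 1404 reads, 106 and 98.8 RPKM), which acts in guard cells and under osmotic stress, was the third most abundant member and did not pass (exact binomial test, adjusted p = 0.168). BAM2 (707 and 457 reads) and the noncatalytic BAM4 (98 and 53 reads), both plastidial, did not pass either. Nor did BAM7 (111 and 58 reads) and BAM8 (93 and 60 reads), nuclear proteins with a DNA-binding domain joined to a beta-amylase domain.

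BAM6 (AT2G32290; chr2:13714516-13717002, minus strand) had the lowest ratio of the 41 genes and was the only one past a fold of 2. It is a plastidial beta-amylase with no well-established role in the leaf. It had 100 reads in Col-0 and 34 in the transgenic line, or 5.92 and 2.75 RPKM, and was 2.15-fold lower (1.44 to 3.27, exact binomial test, adjusted p = 0.00123), just short of the threshold of 0.001. With library totals computed without the 10 most abundant genes it passed both thresholds (adjusted p = 8.76e-04, with a range over the alternatives up to 1). Its model overlaps the gene AT2G32280 on the opposite strand by 693 bases, 354 of them exonic. That neighbour had 18 and 6 reads, and because the strand setting of the counting is not given, reads of the pair cannot be told apart. In all, 15 of the 41 members overlap another annotated gene, 5 of them (APL1, BAM3, BAM6, ISA1 and LSF1) by over 300 exonic bases. The same limit holds for APL1, BAM3 and ISA1. The LSF1 overlap is on the same strand, where a strand setting would not separate the reads. The partner of APL1, the long noncoding RNA gene AT5G19221, had 47 and 31 reads.

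BAM5 (AT4G15210), a beta-amylase outside the plastid and abundant in phloem, lay on the other side. It had 157 reads in Col-0 and 156 in the transgenic line, or 8.58 and 11.7 RPKM, and lay just outside the threshold (exact binomial test, adjusted p = 0.0580), which it passed in the same 5 alternatives as PGM1 (lowest adjusted p = 0.0200, with a range over the alternatives up to 1). Of 5 phloem markers, 1 (AHA3) was higher at an adjusted p under 0.05, as were 4.5% of all tested genes. The summed reads of the 5 markers gave a ratio of 1.10 (1.03 to 1.17). None of the 5 was at 0, and their part in the BAM5 level was not tested. BAM5 took 1.58% of the beta-amylase reads in Col-0 (1.35 to 1.85%) and 2.45% in the transgenic line (2.09 to 2.87%), where BAM6 took 1.01% (0.822 to 1.23%) and 0.535% (0.371 to 0.747%).

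No alpha-amylase passed. AMY2, a cytosolic form, was the most abundant, with 293 and 206 reads (21.5 and 20.7 RPKM) and a ratio of 0.961 (0.801 to 1.15), a log2 ratio of −0.06 that turned to 0.011 under the edgeR TMM factors. AMY3, the plastidial form that can attack the granule, had 94 and 57 reads (3.49 and 2.89 RPKM). AMY1, a secreted form, had 6 and 5 reads, which is too few for a comparison.

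At the end of the pathway, PHS1 (AT3G29320), the plastidial glucan phosphorylase, had 114 reads in Col-0 and 52 in the transgenic line, or 3.93 and 2.45 RPKM. It was 1.60-fold lower (1.15 to 2.27, exact binomial test, adjusted p = 0.0407) but did not pass under the edgeR, DESeq2 or upper quartile scalings. PHS2, its cytosolic counterpart, had 117 and 61 reads (4.30 and 3.07 RPKM; exact binomial test, adjusted p = 0.179). None of the genes that handle maltose and short glucans passed. MEX1 had 119 and 84 reads (8.28 and 8.00 RPKM), a ratio of 0.965 (0.721 to 1.29), and its log2 ratio of −0.05 turned to 0.019 under the edgeR TMM factors. DPE2, which uses maltose in the cytosol, had 186 and 142 reads (6.25 and 6.53 RPKM), and DPE1, which recycles maltotriose in the plastid, had 66 and 58 reads (3.63 and 4.37 RPKM), too few to tell a difference of this size from none.

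The difference between the libraries depended on gene length, and starch genes are long. The median listed length of the members was 2192 bases, against 1468 bases over all genes with reads. In the longest of 8 equal classes of the genes with at least 50 reads (2773 to 16347 bases) the median log2 ratio of all genes was −0.25, while in the other classes it lay between −0.09 and 0.00. That class held 13 members, 12 of them below 0, with a median of −0.43. The other 28 members had a median of −0.11, with 18 below 0. All genes with at least 50 reads outside that class had a median of −0.03. Across genes, Spearman's rho between log2 ratio and length was −0.33 for the 41 members and −0.16 for the 14353 genes with at least 50 reads. Points in either correlation share the same 2 libraries and are not independent replicates.

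When each gene was set against the median of its own length class, an alternative chosen after seeing the data, the median of the members was −0.08, beside −0.02 for all genes with at least 10 reads. At an adjusted p under 0.05, 4 members were then higher (SS1, APL1, PGM1 and BAM5) and 5 lower (SBE2.2, LSF2, BAM3, BAM6 and BAM9). Of all tested genes, 5.58% were then higher and 5.07% lower. The long genes SS3, SS4, SBE2.1, PWD and PHS1, and also APS1 and GBSS1, no longer passed. Thus 6 of the 14 calls, those of SS1, SBE2.2, LSF2, BAM3, BAM6 and BAM9, stood under the library totals, each of the other scalings, a minimum of 10 reads and the length classes. None of the 14 stood in edgeR's exact test once a coefficient of variation of 0.1, 0.2 or 0.4 was assumed.

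**Figure D4:**
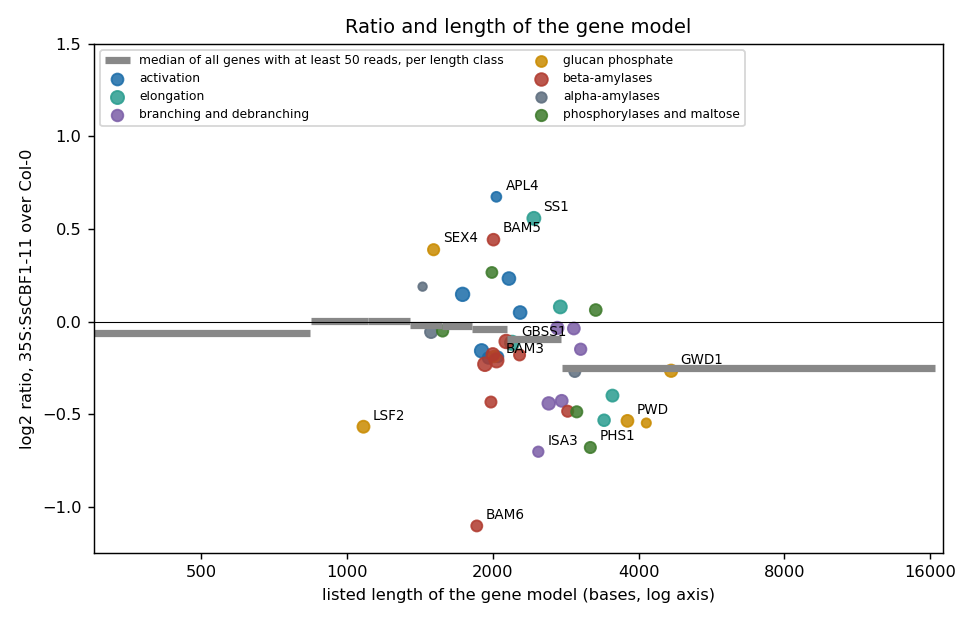
Log2 ratio (35S:SsCBF1-11 over Col-0) of each starch gene against the listed length of its gene model in bases (log axis), coloured by step, with larger points for more reads. Grey bars are the medians of all genes with at least 50 reads in 8 length classes and drop to −0.25 in the longest, while SS1, SEX4 and BAM5 lie above their class and BAM6 and LSF2 below it.

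Related genes outside the set were compared in the same way. Of 8 genes for granule proteins, which place or initiate granules, none passed an adjusted p of 0.05. Of these 8, 7 were below 1 (58.6% of all genes with at least 10 reads were), with a median log2 ratio of −0.23. They ranged from PTST2 (48 and 21 reads), a partner of SS4 in granule initiation, to SS5 (118 and 121 reads), a synthase-like protein without catalytic activity. Of 6 plastid envelope transporters, 3 were higher and 2 lower, where 4.5% of all tested genes were higher and 7.18% lower. TPT (AT5G46110), which exports triose phosphate by day and so draws on the same carbon as starch synthesis, had 11516 and 11035 reads, or 620 and 812 RPKM, a ratio of 1.31 (1.28 to 1.35, exact binomial test, adjusted p = 1.91e-88). The glucose transporter pGlcT (589 and 554 reads), which exports glucose from starch breakdown, had a ratio of 1.29 (1.14 to 1.45, exact binomial test, adjusted p = 4.56e-04). The sugar phosphate carriers went opposite ways. GPT1 (177 and 199 reads) had a ratio of 1.54 (1.25 to 1.89, exact binomial test, adjusted p = 6.51e-04), and GPT2 (42 and 12 reads) was 2.56-fold lower (1.32 to 5.34, exact binomial test, adjusted p = 0.0321). The ATP carrier NTT1 (929 and 570 reads) was lower too. The transporters that were higher lay in the range of the leaf markers given above, and the part of leaf content in them was not tested.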

How the data were processed

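Poly(A) RNA of 1 pool per genotype was sequenced on an Illumina HiSeq 2000. The authors deposited 1 table with a count of reads and an RPKM value per gene and library, beside their own fold, log2 and q-value columns, which were not used. The deposited RPKM values equal reads over listed length and library total (relative tolerance 1e-06). The submitters' notes name TAIR10 and CASAVA 1.7. The aligner, how reads were counted, whether strand was used and how multiple matches were treated are, in the sources used here, not given.

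The deposited counts were used unaltered. Folds carried a pseudocount of 0.5 reads, plain ratios none. Calls used the study's thresholds (adjusted p under 0.001, fold above 2) or an adjusted p under 0.05 alone. The members, lists and tests were chosen with earlier results of these data known. Ratios were printed for members under 0.05, the most abundant member of each step and the highest and lowest ratios, and up to 4 genes per other list were named by size of change. Genes beyond this rule, such as those of the library checks and NTT1, PGM2 and PGM3, were named after their values were seen.

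Alternatives were edgeR (4.0.16) TMM factors, DESeq2 (1.42.0) size factors, upper quartile scaling, a minimum of 10 reads, totals that left out the 10 most abundant genes, a pseudocount of 1, a fold of 1.5, edgeR's exact test with assumed coefficients of variation of 0.1, 0.2 and 0.4, and centring on 8 length classes. The test script was tested on simulated data. Tests ran in Python 3.11.15 with scipy 1.17.1. Coordinates, overlaps and promoter sequences came from the RefSeq annotation of TAIR10.1, to which all 41 members matched by locus. Protein sequences were not used here.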

Additional observations from a re-analysis of the deposited data

How the results depend on the processing

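With 1 library per genotype the tests hold counting error only, lines, pools and genotype cannot be told apart, and no depth would change that. No paired analysis was possible because each genotype has 1 library. The median log2 ratio of the members stayed negative in all alternatives, from −0.20 without the 10 most abundant genes to −0.08 with length classes. At an adjusted p under 0.05, the 2 higher members became 4 under the edgeR TMM, DESeq2 and upper quartile scalings, the minimum of 10 reads and the length classes, adding PGM1 and BAM5, and 1 without the 10 most abundant genes. The share of all tested genes that were higher was 6.23% (TMM), 6.44% (DESeq2) and 5.65% (upper quartile). It was 5.66% with the minimum of 10 reads, 5.58% with length classes and 4.09% without the 10 most abundant genes. The 12 lower members became 6 under the TMM, DESeq2 and upper quartile scalings, which moved all log2 ratios up by 0.07, 0.07 and 0.05, and 5 with length classes. Of all tested genes, 5.48%, 5.38% and 6.04% were lower under these scalings and 5.07% with length classes. Both member counts became 0 under edgeR's exact test with a coefficient of variation of 0.1, 0.2 or 0.4. At 0.1, 0.69% of all tested genes were higher and 1.09% lower. At the study's thresholds the count of 0 lower members became 1 (BAM6) without the 10 most abundant genes, and the other counts stayed at 0, also with a fold of 1.5. Of the genes with a printed ratio, AMY2 turned to log2 ratios of 0.011 (TMM) and 0.017 (DESeq2) and MEX1 to 0.019 (TMM) and 0.024 (DESeq2). Over all genes, 119 higher and 187 lower calls became 134 and 144 under TMM and 136 and 141 under DESeq2. They became 64 and 82 with an assumed coefficient of variation of 0.1, 18 and 21 with 0.2, and 2 and 0 with 0.4, while a fold of 1.5 gave 232 and 409. The cause of these shifts was not tested.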

Other observations

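Of 8 hexose phosphate enzymes outside the plastid pathway, 1 was higher and none lower at an adjusted p under 0.05. Over all tested genes 4.5% were higher and 7.18% lower. The higher gene of the 8 was cPGI, the cytosolic phosphoglucose isomerase, with 505 reads in Col-0 and 488 in the transgenic line. Its ratio was 1.32 (1.16 to 1.5, exact binomial test, adjusted p = 2.50e-04). The cytosolic phosphoglucomutases PGM2 (1643 and 1207 reads) and PGM3 (754 and 578 reads) did not pass. Of 5 genes known to rise when Arabidopsis tissue runs short of sugar, 1 was higher, the trehalose phosphate synthase family gene TPS8 (226 and 227 reads, ratio 1.37, 1.14 to 1.66, exact binomial test, adjusted p = 0.0102). ASN1, an asparagine synthetase of that list, had 30 and 31 reads and did not pass.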
